A study of Rattus norvegicus with 36 samples.

Results

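Odorant and vomeronasal receptor genes were followed through the DNA methylation of male rat germ cells. The genes were taken by symbol (Olr or Or followed by a digit, Vom1r or Vom2r) from the 8 tables in which the authors assigned differentially methylated regions to genes. The symbol rule gave 63 genes with 71 regions. One of these, Olr1, carries the synonym LOX-1 and encodes a lectin-like receptor for oxidised low-density lipoprotein, not an odorant receptor. It was set apart, which left 62 receptor genes with 70 regions, of 8134 named genes and 29951 annotated regions in all. By symbol they comprised 43 class II odorant receptor genes, 6 class I odorant receptor genes, 5 odorant receptor genes whose Olr symbol does not give the class, 7 vomeronasal type 2 genes and 1 vomeronasal type 1 gene.

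The cells came from Sprague-Dawley rats of genotype GFP-GCS, which make green fluorescent protein in germ cells only. No treatment was given at any stage. Gonocytes at gestational days 16, 18 and 20 (GD16, GD18, GD20), spermatogonia at postnatal day 5 (PND5), spermatids R1-8, R9-12, R13-14 and R15-17, and spermatozoa were each represented by 4 samples, 36 in 9 stages. Germ cells were isolated by sorting, whereas the DNA of spermatozoa was purified with a separate kit, so that the last step also crosses a change of DNA preparation. RNA was not measured, so the cell labels could not be checked against marker expression, and no olfactory tissue was among the samples. DNA captured with a rat methylome panel was bisulfite sequenced. The deposited lists give, for each region called different between neighbouring stages, the methylation level at both stages as a mean over the stage. They are printed here as percentages of methylated CpGs without SD or n, the depth behind them is unknown, and a region has no level at a stage unless a list that includes this stage holds it.

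Odorant receptors are G protein-coupled receptors of olfactory sensory neurons and form one of the largest mammalian gene families. Their genes lie in clusters, usually carry the whole coding sequence in a single exon, and are expressed so that each neuron uses a single receptor. Class I receptors resemble those of fish, and class II receptors are the larger group found in land vertebrates. The vomeronasal organ uses separate families, type 1 receptors (V1R) coupled to the G protein subunit Gnai2 and type 2 receptors (V2R) coupled to Gnao1. Transcripts of some odorant receptors are also known from testis and sperm. In the male germ line, DNA methylation is erased in the early fetus and set up anew in gonocytes before birth.

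To show the kind of sequence concerned, windows of 250 bases before and 50 bases after the gene start are printed for 6 receptor genes whose regions had contrasting courses. They come from RefSeq on assembly GRCr8, are written 5′ to 3′ on the strand of the gene, and have CpG dinucleotides, the sites at which methylation was measured, in capitals. The region lists name no genome build, and their coordinates differ from those of GRCr8. For example, the Or8s2 promoter region starts at 7:139978870 in the lists, while its GRCr8 window starts at 7:131395091. It was therefore not determined whether a listed region overlaps the window. Region coordinates given further below are those of the lists and cannot be set beside the GRCr8 coordinates. Or2y1h gained the most at GD20, Or9s23 gained at both steps and fell in spermatids, Or4d2 stayed lowest at PND5 and moved again in spermatids, Or2c1 was low in spermatids up to R13-14, and Or8s2 and Vom2r40 gained late and incompletely.
Or2y1h, GRCr8 chr10:34110378-34110677, plus strand: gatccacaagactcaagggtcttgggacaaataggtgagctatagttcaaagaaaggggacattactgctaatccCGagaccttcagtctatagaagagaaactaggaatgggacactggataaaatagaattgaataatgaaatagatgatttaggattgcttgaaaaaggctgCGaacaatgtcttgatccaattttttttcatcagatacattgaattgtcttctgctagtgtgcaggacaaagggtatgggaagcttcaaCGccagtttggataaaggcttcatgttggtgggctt
Or9s23, GRCr8 chr9:100578691-100578990, plus strand: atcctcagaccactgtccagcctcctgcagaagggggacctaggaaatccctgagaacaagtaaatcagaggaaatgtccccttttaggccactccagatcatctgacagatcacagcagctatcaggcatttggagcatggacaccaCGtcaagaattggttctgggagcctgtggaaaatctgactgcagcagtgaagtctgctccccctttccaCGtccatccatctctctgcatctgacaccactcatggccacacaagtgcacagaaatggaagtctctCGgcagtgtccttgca
Or4d2, GRCr8 chr10:73195229-73195528, minus strand: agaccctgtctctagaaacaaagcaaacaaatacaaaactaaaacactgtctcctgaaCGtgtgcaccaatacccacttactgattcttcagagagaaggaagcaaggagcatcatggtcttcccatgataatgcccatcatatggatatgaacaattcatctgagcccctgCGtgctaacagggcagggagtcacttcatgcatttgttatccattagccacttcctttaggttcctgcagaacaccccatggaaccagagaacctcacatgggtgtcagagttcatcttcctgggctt
Or2c1, GRCr8 chr10:12190143-12190442, minus strand: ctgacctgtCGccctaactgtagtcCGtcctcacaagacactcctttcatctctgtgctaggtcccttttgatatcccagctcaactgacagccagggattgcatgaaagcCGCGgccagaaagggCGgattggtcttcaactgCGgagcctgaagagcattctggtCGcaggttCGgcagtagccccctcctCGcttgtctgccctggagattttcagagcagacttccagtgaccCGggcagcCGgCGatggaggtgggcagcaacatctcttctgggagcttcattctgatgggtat
Or8s2, GRCr8 chr7:131395091-131395390, minus strand: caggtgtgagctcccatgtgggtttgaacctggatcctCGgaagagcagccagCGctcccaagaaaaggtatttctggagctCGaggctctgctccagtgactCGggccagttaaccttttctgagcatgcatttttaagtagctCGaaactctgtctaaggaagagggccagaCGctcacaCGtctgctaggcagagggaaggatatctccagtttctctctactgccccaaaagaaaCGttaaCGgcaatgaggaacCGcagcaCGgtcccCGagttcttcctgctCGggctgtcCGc
Vom2r40, GRCr8 chr1:148486078-148486377, minus strand: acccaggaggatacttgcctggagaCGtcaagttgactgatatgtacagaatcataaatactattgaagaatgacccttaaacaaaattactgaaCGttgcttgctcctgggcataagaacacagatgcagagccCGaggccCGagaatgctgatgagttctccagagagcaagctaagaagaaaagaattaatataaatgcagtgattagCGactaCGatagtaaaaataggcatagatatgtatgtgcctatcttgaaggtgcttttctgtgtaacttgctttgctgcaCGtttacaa

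The CpG number of the windows was 14 for Or8s2, 12 for Or2c1, 7 for Vom2r40, 3 for Or2y1h and Or9s23 and 2 for Or4d2. Among the 53 of 62 receptor genes with a window in the table, the median was 3 CpGs (0 to 14), against 1 CpG over all 1257 receptor windows and 7 CpGs over 32212 windows of other genes. An ATG stood directly at the annotated gene start in 50 of the 53 windows (94.3%), against 92.5% of all receptor windows and 5.74% of the windows of other genes. In GRCr8 the annotated start of nearly all these genes therefore coincides with the coding start. Receptor windows thus mostly lie around the coding start and few windows of other genes do, so their CpG and motif counts compare unlike positions. Among the 43 genes with a promoter region, 39 had a window and 38 of these (97.4%) an ATG at the start, Vom2r40 being the exception. Whether this also holds in the annotation the authors used was not tested. If it does, the promoter comparisons below also set regions around the coding start of receptors against regions around other gene starts. The palindrome TAATTA, the core bound by homeodomain factors such as Lhx2 and Emx2, was found in 7 of 53 windows (13.2%), against 19.2% of all receptor windows and 5.36% of the windows of all genes. The palindrome CCCNNGGG, the core of sites bound by the olfactory Ebf factors, was found in 1 of 53 windows (1.89%), against 1.75% of all receptor windows and 12.4% of all windows. Both motifs read the same on both strands and do not overlap each other by their letters. These counts describe the letters of the windows and say nothing about binding.

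Few receptor genes had an annotated region, and these regions were spread over gene parts in other shares than those of all genes. Of 1364 receptor genes with a curated RefSeq transcript, 62 (4.55%) had an annotated region, against 43.9% of all 18539 such genes. The receptor genes reached by the capture panel could not be counted, and receptor genes of near-identical sequence can lose reads that map to several places, so a missing gene cannot be read as a gene without change. Promoter regions made up 43 of the 70 receptor regions (61.4%), against 4.33% of all annotated regions. Intron regions made up 6 of 70 (8.57%), against 75.3%. Exons held 13 receptor regions (18.6% against 12.6%) and transcription ends held 8 (11.4% against 4.06%). A typical receptor gene has a short transcript with no long intron, and the comparison was not corrected for gene length. Receptor regions had a median of 7 CpGs (5 to 25) over 475 bp and 1.75 CpGs per 100 bp, against 8 CpGs over 448 bp and 2.09 CpGs per 100 bp in all annotated regions. Regions at the minimum of 5 CpGs made up 30.0% of the receptor regions and 16.2% of all annotated regions.

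**Figure D1:**
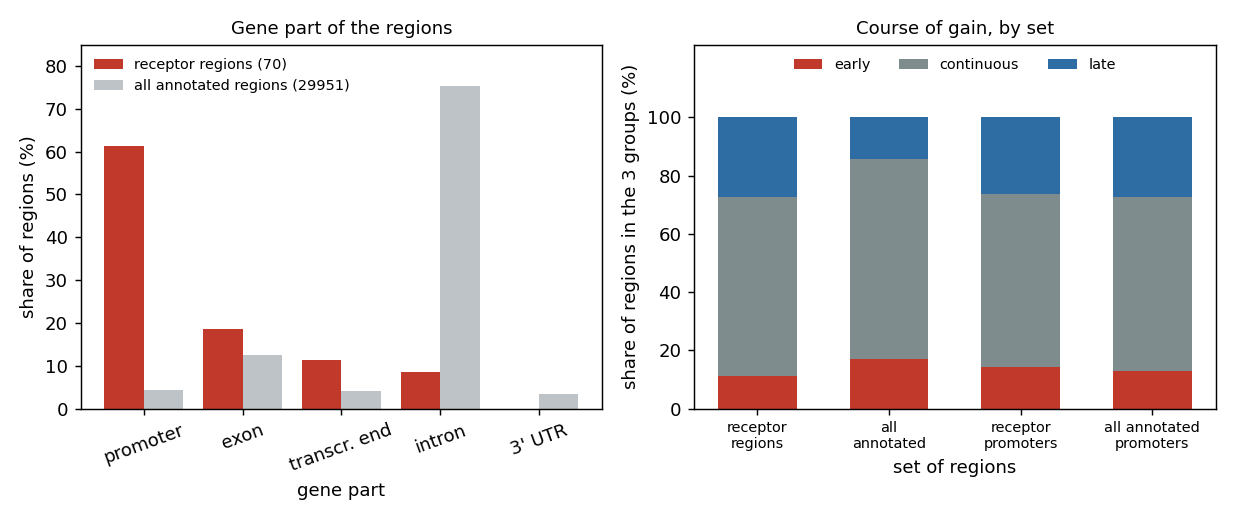
Left, share of regions (percent) by annotated gene part for the 70 receptor regions and all 29951 annotated regions. Promoters held 61.4% of the receptor regions, against 4.33% of all annotated regions. Right, share (percent) of the regions in the authors' 3 groups of gain, for 62 grouped receptor regions and 28613 grouped annotated regions, and for the promoter regions of each. The late group held 27.4% of the grouped receptor regions against 14.4% of all grouped annotated regions, but 26.2% against 27.5% among promoters.

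No receptor region was in the list of losses at GD18 against GD16, a list that held 0.341% of all annotated regions. At the next step gonocytes gained methylation at receptor genes as elsewhere. At GD20 against GD18, 45 receptor regions in 43 genes gained and none lost, which is 64.3% of the 70 regions, against 81.7% of all annotated regions. Promoter regions alone gave the opposite order, with gains at 72.1% of 43 receptor promoters against 62.9% of 1296 annotated promoters. Levels of the 45 regions had a median of 50.1% (32.8% to 78.4%) at GD20, against 5.2% (0.7% to 10.4%) at GD18. All annotated regions with a gain at this step had medians of 56.1% at GD20 and 5.4% at GD18. In promoter regions the GD20 medians were 51.2% for receptors and 53.7% for all annotated promoters. In the authors' deposited table the adjusted p-values of the 45 regions lay between 4.6e-25 and 5.31e-05. They rest on the authors' test of each region. Whether its units were samples or the CpGs of a region is not stated, nor whether the samples of a stage are separate animals. The smallest values were those of Vom2r37, Or8s5 and Or5au1, regions with 22, 25 and 20 CpGs. The p-values may therefore measure spread between CpGs or technical spread, not spread between animals.

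Between GD20 and PND5 most of the receptor regions listed at this step approached full methylation. At PND5 against GD20, 55 receptor regions in 50 genes gained and none lost, or 78.6% of the 70 regions against 79.3% of all annotated regions. Among promoters the shares were 83.7% for receptors and 75.5% for all annotated promoters. The median over the 55 regions was 96.2% (40% to 99.7%) at PND5, against 44.0% (4.7% to 68.7%) at GD20. For all annotated regions in this list the medians were 96.8% at PND5 and 50.4% at GD20, and for promoters at PND5 they were 97.0% for receptors and 95.9% for all annotated promoters. The adjusted p-values of the 55 regions in the authors' deposited table lay between 2.74e-36 and 9.1e-05.

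The authors sorted regions by the step at which they gained, and these groups are called here early (a gain listed at GD20 only), continuous (at GD20 and again at PND5) and late (at PND5 only). Of the 62 receptor regions in the groups, 7 were early (11.3%), 38 continuous (61.3%) and 17 late (27.4%), against 17.0%, 68.6% and 14.4% of the 28613 annotated regions in the groups. Among promoter regions alone the receptor shares were 14.3%, 59.5% and 26.2%, against 12.9%, 59.6% and 27.5%. The larger late share of receptors was thus absent once only promoters were set side by side. Since the groups were made from the levels, the levels within a group are described below and not tested. Regions at GD20 levels of 69.6% or more could gain hardly more than the smallest listed difference of 30 points, so absence from the PND5 list does not show that an early region stopped gaining.

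**Figure D2:**
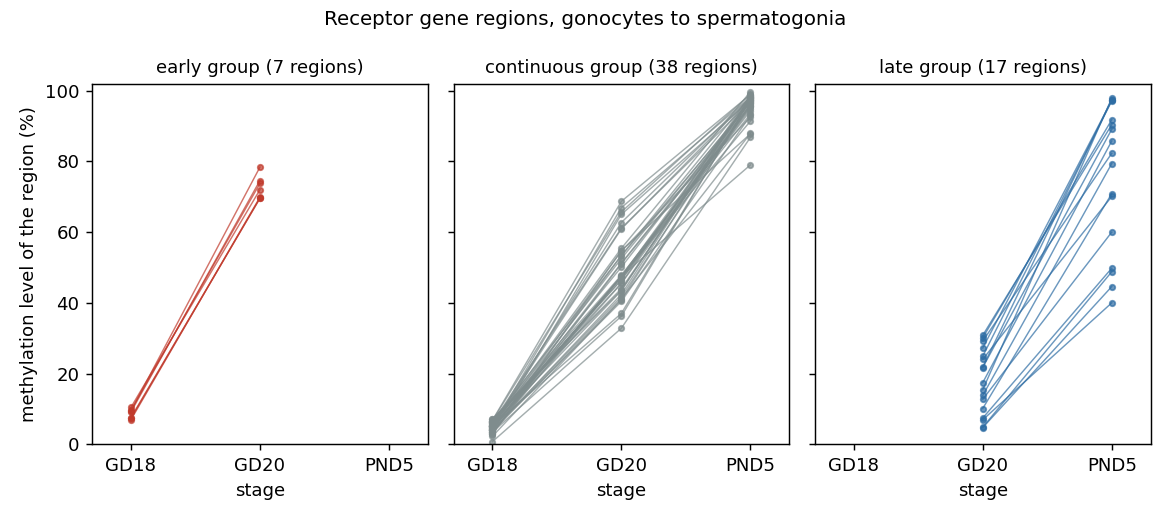
Methylation level (percent) of each receptor region at GD18, GD20 and PND5 in the early (7 regions), continuous (38 regions) and late (17 regions) groups. Each line is 1 region and each point the authors' mean of a stage, and a missing point means that no list gives the level. Early regions ended at 69.6% to 78.4% at GD20, continuous regions at 79.0% to 99.7% at PND5, and late regions spread between 40% and 97.9% at PND5.

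The 7 early regions all belonged to class II odorant receptor genes, which held 50 of the 70 receptor regions. Of the 7, 6 were promoters, as were 61.4% of the receptor regions. Or2y1h had the largest receptor gain at GD20, 78.4% at GD20 against 9.4% at GD18 (adjusted p = 1.9e-17 in the authors' deposited table). Its neighbour Or2y1g, whose region lies 10.1 kb away, had 69.6% at GD20 against 7.5% at GD18. These neighbours of like name were thus both early. The exon region of Or2aa1 had 74.6% at GD20 against 9.1% at GD18. The promoter region of Or4e5 had 73.8% at GD20 against 9.6% at GD18. The remaining early promoters were close to these, with GD20 levels of 72.0% at Or6b2, 69.9% at Or5af1b and 69.6% at Or6b3. Their GD18 levels of 10.4%, 6.9% and 7.3% included the highest of any receptor region, at Or6b2. The GD18 levels of the 7 early regions (6.9% to 10.4%) had a median of 9.1%, against 5.0% (0.7% to 7.1%) in the 38 continuous regions, and a higher GD18 level in the early group was also seen over all annotated regions (7.1% against 5.1%).

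Among the class I genes, which lie together on one chromosome, all 6 had a gain at PND5 and 5 of them also at GD20. Such gains were listed at 79.3% and 81.7% of all annotated regions. The promoter of Or52d3 (1:169575039-169575257) was the highest of them at GD20, with 6.7%, 68.7% and 98.9% at GD18, GD20 and PND5. Its step at PND5, 98.9% against 68.7% at GD20, was the smallest gain of any receptor region in that list. The exon region of Or52h1 followed with 6.6%, 65.7% and 99.0% at the 3 stages. Or52h2, 14.3 kb further on, had 2.8%, 51.1% and 95.9%. At the lower end were the promoter of Or51q1d with 5.1%, 37.0% and 97.5%, and the exon region of Or51l1 with 3.4%, 36.2% and 97.7%. The promoter of Or52l1 was late, with 89.1% at PND5 against 21.7% at GD20. The class I regions thus ranged from 21.7% to 68.7% at GD20, while at PND5 all 6 lay between 89.1% and 99.0%.

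Among class II promoters, 5 regions in the continuous group combined GD20 levels above 60% or many CpGs with near-complete methylation at PND5. Or13l2 had 5.1%, 60.9% and 98.0% at GD18, GD20 and PND5. Or9s15 had 4.8%, 66.9% and 98.2%, and Or9s23 had 6.0%, 61.1% and 96.9%. The longest receptor region, that of Or8s5 with 25 CpGs over 1710 bp, had 5.5%, 50.1% and 97.2%. That of Or5au1, with 20 CpGs over 1487 bp, had 4.2%, 51.2% and 96.7%. Both of these long regions held many CpGs, but their 1.46 and 1.34 CpGs per 100 bp were below the receptor median of 1.75. Their GD20 and PND5 levels lay close to the receptor medians of 50.1% and 96.2%.

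The other continuous class II promoters lay between 32.8% and 55.4% at GD20. The highest PND5 level of all receptor regions was at Or6ae1, with 5.6%, 55.4% and 99.7% at GD18, GD20 and PND5. Or10k2 (54.6%), Or10v9b (52.5%), Or9s27 (47.8%), Or7r1 (47.6%), Or6d14 (47.5%), Or6b2b (46.5%) and Or2at1 (45.5%) came next in their GD20 levels. Or1o2e (44.0%), Or1ad6 (43.6%) and Or1f31 (42.4%) were slightly lower at GD20. Or10g9 was the lowest at both early stages, with 0.7% at GD18 and 32.8% at GD20, and had 86.8% at PND5. At PND5 all but Or10g9 and Or6d14, which had 79.0%, lay between 92.5% and 99.7%. No level carries an error, so neighbours in this order cannot be told apart.

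Of the 13 receptor exon regions, those of 4 class II genes were continuous. Or6b13 had 6.5%, 53.3% and 96.6% at GD18, GD20 and PND5. The exon region of Or2at1, with 13 CpGs, had 4.9%, 47.4% and 91.4%. Or1x2 had 6.3%, 46.5% and 94.9%, and Or1x2b, 12.9 kb away, had 3.6%, 41.1% and 87.9%. At the transcription end of Or10g3, a region of 17 CpGs had 5.3%, 47.3% and 93.4%. Of the 5 receptor genes with an Olr symbol, 4 were continuous, and the fifth, Olr1090, was listed in spermatids only. Olr1523 had 5.2%, 62.7% and 98.2%, Olr36 had 4.1%, 53.4% and 98.4%, Olr35 had 4.3%, 45.5% and 95.6%, and Olr1585 had 5.3%, 43.4% and 98.4% at the 3 stages. For comparison, the intron region of Olr1, the receptor set apart above, had 6.1%, 55.5% and 95.9%.

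The late group held the regions that were least methylated at PND5. Below 60% at PND5 were 4 of 55 receptor regions (7.27%), against 2.07% of all annotated regions in that list, and below 90% were 15 (27.3%), against 16.1%. At GD20, 13 of the 55 (23.6%) were below 25%, against 9.05%. These shares set receptor regions, 61.4% of them promoters, against annotated regions of which 75.3% are in introns, and were not computed for promoters alone. Among promoters in that list the medians of receptors and of all annotated promoters were 97.0% and 95.9% at PND5, and 43.8% and 44.6% at GD20. The 4 receptor regions below 60% at PND5 were the promoters of Or4d2, Vom2r40 and Or10ag52 and an intron region of Vom2r36. Or4d2 had 40% at PND5 against 6.9% at GD20 (adjusted p = 3.35e-06 in the authors' deposited table). Vom2r40 had 48.8% against 4.8%, and Or10ag52 had 49.8% against 7.4%. Further late promoters with intermediate levels were those of Or8s2 with 60% against 12.7%, Or2b11 with 70.1% against 24.0% and Or10p1 with 79.4% against 13.8%. Other late regions were more highly methylated at PND5. The promoter of Or8b1 had the largest gain at this step, 97.9% at PND5 against 15.4% at GD20. The promoter of Or10d5b had 97.3% against 27.2%, and the exon region of Or4e2, with 13 CpGs, had 97.1% against 24.9%. The promoter of Or2n1e had 82.3% against 29.2%. A low level at GD20 thus did not go with one particular level at PND5. Across the 55 regions with both levels, CpGs per 100 bp and the level were weakly related (Pearson r = −0.20 and Spearman rho = −0.05 at GD20, −0.26 and −0.06 at PND5). The regions share the same stage means, and these coefficients are descriptions.

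The 9 vomeronasal regions all gained at PND5, as did 78.6% of the receptor regions and 79.3% of all annotated regions. Of the 8 V2R regions 4 were late, against 27.4% of the grouped receptor regions and 14.4% of all grouped annotated regions. With 8 regions this count is too small to tell from those shares. The promoter of Vom1r99, the only V1R gene, had 4.1%, 47.4% and 97.6% at GD18, GD20 and PND5. Continuous V2R regions were the promoters of Vom2r33 (3.9%, 40.4% and 93.0%) and Vom2r23 (2.2%, 40.9% and 97.8%) and, in introns, those of Vom2r37 (4.0%, 41.7% and 96.2%, with 22 CpGs) and Vom2r36 (3.6%, 65.0% and 97.3%). Late V2R regions had PND5 levels of 85.8% at the Vom2r34 promoter, 70.9% in an intron of Vom2r4, 48.8% at the Vom2r40 promoter and 44.6% in a second intron region of Vom2r36. Their GD20 levels were 17.4%, 10.1%, 4.8% and 4.7%. Taken over the 9 vomeronasal regions in the PND5 list, the median was 93.0% at PND5 and 40.4% at GD20, against 96.5% and 46.0% over the 46 odorant receptor regions. With 9 regions from 8 genes and no error on a level, this difference was not tested. The low intron region of Vom2r36 lies 42.7 kb from the other one and 4.62 kb from the Vom2r34 promoter region, so its gene assignment is less certain.

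For 3 regions the chromosome in the lists is not that of the gene in the name table. These are the promoter of Or8b1 (chromosome 4 in the lists, 8 in the table), the promoter of Vom2r23 (8 and 1) and the intron region of Vom2r4 (10 and 1). The gene behind these regions is therefore uncertain, and the reason for the mismatch was not tested. Without these regions the counts were 44 gains at GD20 and 52 at PND5.

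Neighbouring receptor genes could be compared because 35 of the 62 genes, with 39 regions, lay in 12 clusters in which successive regions were at most 250 kb apart. The longest row was on chromosome 9 (9:99659447-99752485), where 6 promoters lay within 93.0 kb. In chromosomal order their GD20 levels were 72.0% at Or6b2, 46.5% at Or6b2b, 69.6% at Or6b3, 61.1% at Or9s23, 47.8% at Or9s27 and 66.9% at Or9s15. Or6b2 and Or6b3 were early and the other 4 continuous. The clearest contrast between neighbours was on chromosome 10, where the Or4d2 promoter (10:75191799-75192213) lies 9.83 kb from the Olr1523 promoter (10:75202042-75202597). At PND5 they had 40% and 98.2%, and at GD20 6.9% and 62.7%. Or2b11 and Or2aa1, 15.5 kb apart, had 24.0% and 74.6% at GD20. On chromosome 15 the GD20 levels were 47.3% at Or10g3, 24.9% at Or4e2 and 73.8% at Or4e5, each in a different group of gain. The widest row at GD20 was that of Vom2r33, Vom2r36 and Vom2r34 on chromosome 1, from 4.7% to 65.0%. The row of Or8s5 and Or8s2 ranged from 12.7% to 54.8%, and the class I row from Or51q1d to Or52d3 from 37.0% to 68.7%. Narrower rows were also seen. Or1ad6, Or1x2b and Or1x2 lay between 41.1% and 46.5% at GD20, and Olr35, Olr36 and both regions of Or2at1 lay between 45.5% and 53.4%. Inside 6 of the 12 clusters lay 17 further listed regions not assigned to a receptor gene. Those with a gain had 81.4% to 99.2% at PND5 and 34.8% to 59.7% at GD20. Neighbours of one cluster therefore had similar GD20 levels in some rows and levels as far apart as 4.7% and 65.0% in others.

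**Figure D3:**
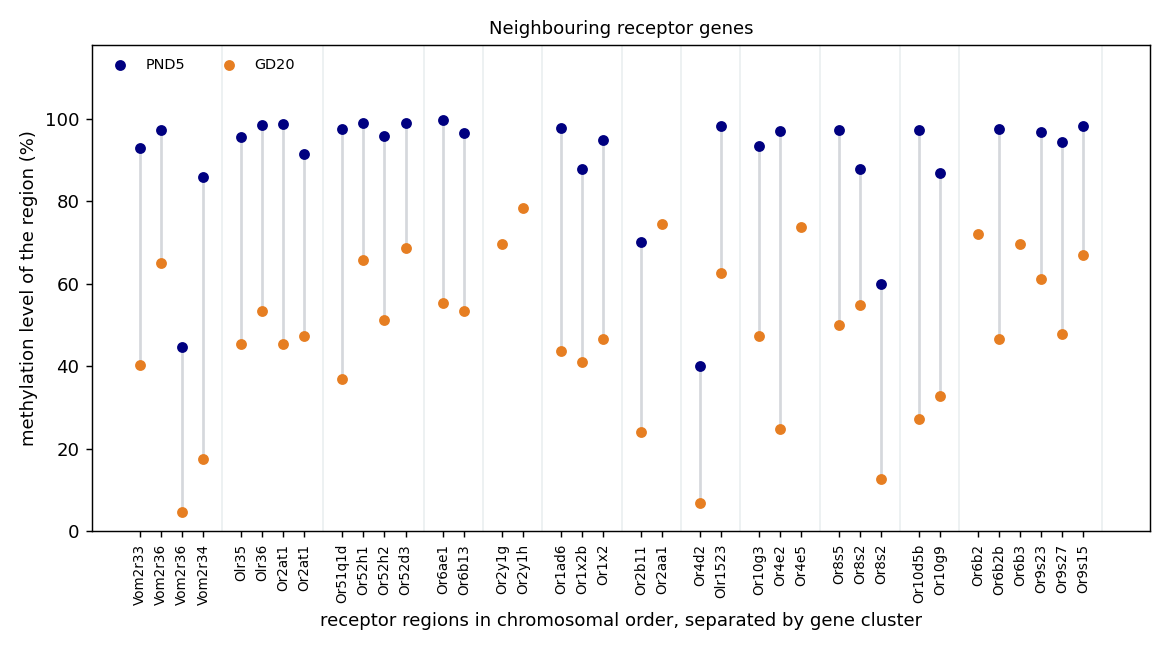
Methylation level (percent) of receptor regions in the 12 gene clusters at PND5 and GD20, in chromosomal order and separated by cluster. Grey lines join the levels of a region, and regions without a PND5 point were not listed at that step. The row from Or6b2 to Or9s15 spanned 46.5% to 72.0% at GD20, and Or4d2 had 40% at PND5 beside 98.2% at Olr1523.

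Of the 8 genes with 2 regions each, those whose regions shared a listed stage could be compared, and the regions differed in some of them. The widest contrast was between the intron regions of Vom2r36, given above, with 97.3% and 44.6% at PND5 and 65.0% and 4.7% at GD20. In Or8s2 the transcription end and the promoter lie 1.47 kb apart. The transcription end was continuous, with 2.8%, 54.8% and 87.8% at GD18, GD20 and PND5, whereas the promoter, the densest receptor region at 6.25 CpGs per 100 bp, had 60% at PND5 against 12.7% at GD20. In Or7r1 the order was reversed, with 47.6% at the promoter and 21.8% at the transcription end at GD20, and 95.8% and 97.5% at PND5. The promoter and transcription end of Or10k2 had 54.6% and 47.3% at GD20, and the promoter and exon region of Or2at1 had 45.5% and 47.4%. These last genes showed no such contrast. In Or2c1 and Or10ac1 one region was listed at PND5 and the other in spermatids only. Their transcription ends were late, with 90.4% at PND5 against 30.8% at GD20 for Or2c1 and 91.8% against 30.1% for Or10ac1. The exon region of Or10ac1 and the promoter of Or2c1 had at most 20.5% in the spermatid lists. No stage has a listed level for both regions of either gene, so a difference between regions cannot be told from a difference between stages.

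In spermatids, 10 receptor regions in 9 genes were listed. All were in odorant receptor genes, but only 9 of the 70 receptor regions were vomeronasal. Of the 10, 2 were also listed in gonocytes or spermatogonia. Of all 29951 annotated regions, 3176 were listed at a spermatid step and 28611 at a fetal or neonatal step. Most of the 3176 were therefore listed in both periods. The smaller overlap of the receptor regions rests on 10 regions and was not tested. At R9-12 against R1-8, 4 regions gained (5.71%, against 2.31% of all annotated regions) and 1 lost (1.43%, against 1.68%). At R13-14 against R9-12, 6 regions in 5 genes lost (8.57%, against 5.06%) and none gained. At R15-17 against R13-14, 1 gained (1.43%, against 2.99%) and 1 lost (1.43%, against 0.691%). In spermatozoa against R15-17, 2 gained (2.86%, against 0.922%) and 1 lost (1.43%, against 0.594%). Counted by genes, gains at R9-12 were listed in 6.45% of the 62 receptor genes, against 6.70% of all named genes, and losses at R13-14 in 8.06%, against 14.2%. These counts are too small to tell from the shares over all annotated regions, and only regions that the authors placed in a group or cluster by their course carry a gene annotation. The smallest difference in these lists was 10 points.

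A rise at R9-12 followed by a fall at R13-14 was seen in 4 regions, those 4 that gained at R9-12. Or1e16, in an intron region of 15 CpGs, had 23.7%, 35.4% and 14.5% at R1-8, R9-12 and R13-14 (adjusted p = 0.00541 and 3.38e-06 for the 2 steps in the authors' deposited table). Or2g25, in its exon, had 9.6%, 24.1% and 8.4%. The Or2c1 promoter, with 10 CpGs, had 3.7%, 20.5% and 4.6% (adjusted p = 0.000151 and 0.00166 in the authors' deposited table). A region at the transcription end of Or11m3 had 8.1%, 20.4% and 4.1%. A second Or11m3 region only 6 bp away (0.006 kb) had 2.2% at R13-14 against 17.8% at R9-12, so these regions are not independent. All 4 ended within 10 points of their R1-8 level, and as the regions were grouped by this course it is no separate result. The intron region of Olr1090 fell as well, to 7.8% at R13-14 against 22.6% at R9-12, and then gained, with 26.4% in spermatozoa against 15.2% at R15-17.

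Later changes were single cases. The exon region of Or10ac1 fell to 0.7% at R15-17, against 11.3% at R13-14 (adjusted p = 0.0459 in the authors' deposited table). Or1r1, in an exon region of 12 CpGs, had 24.6% in spermatozoa against 13.5% at R15-17. Apart from Or4d2 and Or9s23, the receptor regions in these lists had at most 35.4% at the stages with a listed level. None of these 8 regions had a listed level in gonocytes or spermatogonia.

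Or4d2 and Or9s23 linked both periods. The Or9s23 promoter, at 96.9% at PND5, had 85.5% at R9-12 against 97.9% at R1-8 (adjusted p = 0.0111 in the authors' deposited table). The Or4d2 promoter, at 40% at PND5, had 40.4%, 64.6% and 46.1% at R13-14, R15-17 and in spermatozoa (adjusted p = 0.0262 and 0.0399 for the 2 steps in the authors' deposited table). It was the receptor region with the lowest PND5 level and, at 6 CpGs over 415 bp, the highest of the 3 listed in spermatozoa. Lists that include PND5 do not include R1-8, so the interval between them was not compared by the authors' lists. Over all annotated promoters, gains at R15-17 were listed at 4.09% of 1296 regions and losses in spermatozoa at 1.47%.

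**Figure D4:**
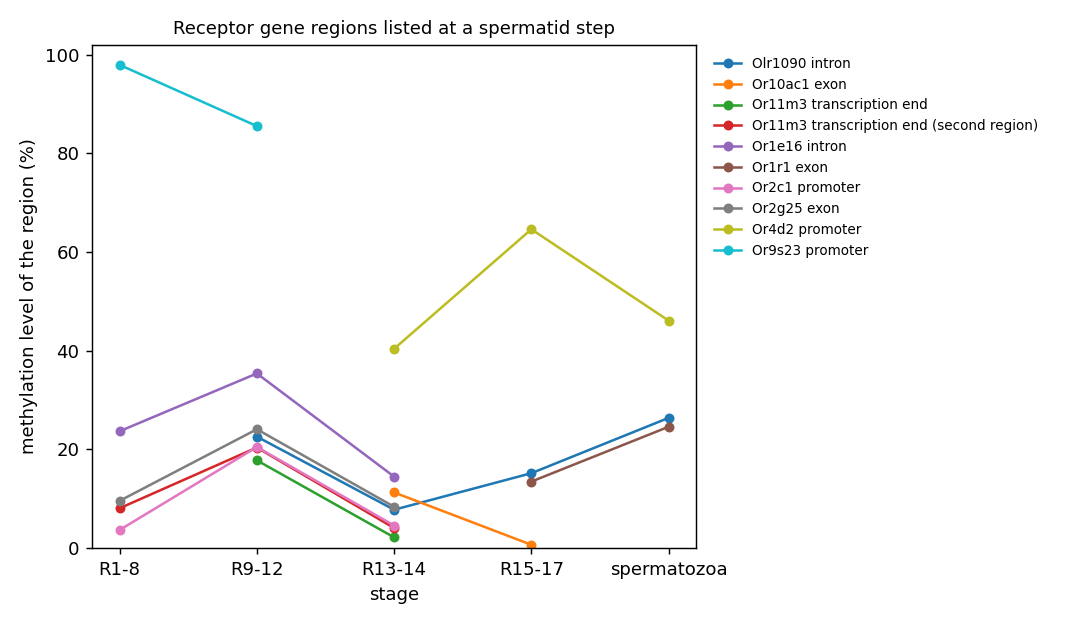
Methylation level (percent) of the 10 receptor regions listed at a spermatid step, at R1-8, R9-12, R13-14, R15-17 and in spermatozoa. Each line is 1 region, each point the authors' mean of a stage, and missing points have no listed level. The plot shows 4 regions that rose at R9-12 and fell at R13-14, while Or4d2 lay between 40.4% and 64.6%, and Or9s23 was at 85.5% at R9-12 against 97.9% at R1-8.

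Genes that act with these receptors were looked up in the same tables. Of 16 genes for signal transduction in olfactory neurons, 12 had annotated regions, against 43.9% of all genes with a curated transcript. All 12 gained at GD20 and at PND5. Gains were listed in 69.4% of the 62 receptor genes and 84.5% of all 8134 named genes at GD20, and in 80.6% and 90.8% at PND5. The gains in these lists therefore lie near those of all genes and single out none of them. Omp, the olfactory marker protein, had 5.7%, 50.8% and 96.8% at GD18, GD20 and PND5 in an exon region of 24 CpGs. Gnal, the G protein subunit that couples odorant receptors to adenylyl cyclase, had 3.0%, 40.5% and 97.8% in an intron, and that cyclase, Adcy3, had 4.8%, 43.6% and 98.3% in an exon. In spermatids, 2 of the 12 lost at R9-12 (against 5.37% of all named genes), 3 lost at R13-14 (against 14.2%) and 3 gained at R15-17 (against 9.34%). Genes of this list have up to 8 regions each. Among those that moved was Ric8b, a chaperone of the G protein subunit, with 97.7%, 86.9% and 98.4% at R9-12, R13-14 and R15-17. For receptor transport and vomeronasal signalling, 8 of 10 genes were annotated (against 43.9%) and 7 gained at each of the GD20 and PND5 steps, the exception being Hspa1l. The receptor transporters Rtp1 and Rtp2 had 50.3% and 54.6% at GD20, and the vomeronasal G protein subunits Gnao1 and Gnai2 had 46.7% and 45.5%. Hspa1l was listed only in spermatids, with 10.1% at R13-14 against 21.8% at R9-12 over 26 CpGs.

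Of 18 genes that act in receptor choice and silencing, 13 were annotated, against 43.9% of all genes with a curated transcript. Of these, 12 gained at GD20 (against 84.5% of all named genes) and all 13 at PND5 (against 90.8%). Lhx2, a homeodomain factor of receptor enhancers, had 3.3%, 58.4% and 95.9% at GD18, GD20 and PND5, and Ebf1 had 4.3%, 39.5% and 94.8%. Ldb1, the cofactor that joins enhancers, had in its region with the most CpGs 93.3% at PND5 against 22.2% at GD20. In spermatids, 3 of the 13 lost at R9-12 (against 5.37% of all named genes), 3 gained (against 4.67%) and 2 lost (against 14.2%) at R13-14, and 3 gained at R15-17 (against 9.34%). The printed values of these genes are those of 1 region each, chosen by CpG number, and genes such as Ebf3 with 30 regions have many more chances of a listed region than a receptor gene.

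Of 94 other chemosensory receptor genes (trace amine-associated, taste, formyl peptide and Ms4a genes), 9 were annotated, against 43.9% of all genes with a curated transcript. Gains were listed in 7 of the 9 at GD20 and 8 at PND5, against 84.5% and 90.8% of all named genes. Taar7a, a trace amine-associated receptor, had 2.9%, 41.0% and 97.6% at GD18, GD20 and PND5 at its promoter, and the bitter taste receptor gene Tas2r106 had 2.7%, 36.2% and 95.3%. Taar1 and Taar9 fell in spermatids like the odorant receptor regions above, Taar1 to 8.6% at R13-14 against 19.9% at R9-12 and Taar9 to 12.7% against 23.4%. These were the list's only spermatid changes among annotated regions, and losses at this step were listed in 14.2% of all named genes.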

How the data were processed

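Methylation was measured in 36 samples of 9 stages by capture bisulfite sequencing of sorted germ cells and spermatozoa, per the labels' protocols. Reads had been handled with Bismark 0.19.0 and Bowtie2, per the submitters' processing notes. Levels per locus were cut into segments of at least 50 bp before regions were searched, per the labels, although the shortest region in the lists has 20 bp. Build, coverage minimum and the pooling of samples within a stage are not given in the sources consulted. The 7 deposited lists hold a mean level per region and stage, which the authors deposited as a fraction and which was multiplied here by 100. They also hold, per the file headers, a p-value and an adjusted p-value of a two-sample test by the authors, the CpG number and the length. Listed regions differed by at least 30 points before and around birth and at least 10 points in spermatids, with at least 5 CpGs and an adjusted p of at most 0.05 as the values show.

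The 8 annotated tables give a RefSeq transcript and gene part but no symbol. Symbols came from the RefSeq gene table of assembly GRCr8, used for names and chromosomes only, and 1762 of 29951 annotated regions (5.88%) had none. Annotated regions were matched to the lists by chromosome, start (1 bp lower in the lists) and end. Later minus earlier differences, counts and medians were computed with Python 3.11.15, pandas 2.3.3, numpy 2.4.6 and scipy 1.17.1, and the matching was tested on simulated lists with known members. No value per sample was used, so no test between stages was run here, and no depth or interval can be given. The receptor genes, the pathway lists and the thresholds were chosen with earlier results of these data known. Pathway genes are represented by the region with the most CpGs. The rule for naming genes took every vomeronasal gene, every gene listed in spermatids, every gene with a promoter region, regions with 10 or more CpGs, and at each of the GD20 and PND5 steps the 8 largest and 4 smallest differences. Any other receptor gene was named after its values were seen. Alternatives were matching by an overlap of 1 bp, larger differences (40 and 15 points), an adjusted p of at most 0.01, promoters and exons only, omission of pseudogenes, medians weighted by CpGs and 1 region per gene. A minimum of 5 CpGs was also set, but every listed region already had that many. Inclusion of Olr1 and omission of 3 regions on another chromosome were chosen after seeing the data.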

Additional observations from a re-analysis of the deposited data

How the results depend on the processing

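Of 77 alternative values for 13 results, 65 stayed within 1.5 times the reported count or within 10 points of the reported median. Gains and losses were counted separately, so no alternative could turn a direction. The 9 values at a minimum of 5 CpGs could not move, and those with Olr1 or without 3 regions could hardly move. The gains at GD20 and PND5 could not move at an adjusted p of at most 0.01 either. Their largest adjusted p-values in the authors' deposited table were 5.31e-05 and 9.1e-05. Omission of pseudogenes removed none of the 62 genes, and matching by overlap left all 9 counts unchanged. The gains at GD20 (45 regions) and PND5 (55 regions) and the medians at GD18, GD20 and PND5 were among the 65 under every alternative that was run. The counts that moved were all in spermatids and small. With a smallest difference of 15 points, the gains at R9-12 numbered 1 and the losses 0, the losses at R15-17 numbered 0 and the gains in spermatozoa 0. With an adjusted p of at most 0.01, the losses at R9-12, the gains and the losses at R15-17 and the losses in spermatozoa all numbered 0, and the gains in spermatozoa numbered 1. With promoters and exons only, the gains at R9-12 numbered 2, the losses at R13-14 numbered 2 and the gains in spermatozoa 1. These follow from the construction of the alternatives, which leave fewer regions. Matching by symbols from the annotated tables alone was not run, because these tables hold no symbols. No paired analysis was possible because no value per sample was used. Replicates could not be left out for the same reason. Depth is unknown, so which changes were too small to be listed cannot be said.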
